A study of Rattus norvegicus with 16 samples.

Results

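The neuropeptide genes of the cerebral cortex were examined in the gustatory cortex (GC) of the rat, chosen by name: Sst, Vip, Npy, Cck, Penk, Pdyn, Tac1, Crh, Cort and Pnoc. All 10 of the 10 genes were measured, each by 1 probe set, among 15209 probe sets that the array annotation pairs with a single gene and 28826 on the array. Messenger RNA was profiled on 16 Affymetrix RaGene 1.1 ST arrays, 1 per rat, in 4 groups of 4. The saccharin 3 h and saccharin 1 h groups had drunk 0.1% saccharin, a taste they had not met before, and were killed 3 h or 1 h afterwards, and the water 3 h and water 1 h groups had drunk water, the familiar taste. All rats were males, labelled 2 months old (the methods give a range of ages in weeks), of the Wistar Hola stock, kept on water restriction for 3 days before the test drink, and every group had drunk before it was killed. Levels are log2 values summarised per probe set by robust multi-chip average (RMA), and a difference of 1 on this scale is a doubling.

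Neuropeptides are cut from larger precursor proteins, packed into dense core vesicles and released when a neuron fires strongly, to act on G protein-coupled receptors. In the cortex most of these genes mark inhibitory interneurons: Sst cells contact dendrites, Vip cells contact other interneurons, and Npy, Cort, Crh, Tac1, Penk and Pnoc are each made by subsets of inhibitory cells. Cck is made by a class of basket cells and also by many excitatory cells. Penk, Pdyn and Tac1 are abundant in the neurons of the striatum, which lies beneath the insular cortex. Several of the precursor genes are known targets of the cyclic AMP pathway, through a short promoter element bound by CREB.

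The promoter of Sst holds that element whole, and these stretches are shown so that the element can be compared between the genes. RefSeq promoters (GRCr8, 250 bases before to 50 after the annotated start) were at hand for 6 of the 10 genes, Sst, Vip, Npy, Pdyn, Tac1 and Cort, and a stretch of 120 bases is given for each, 5′ to 3′ along the gene, with the letters TGACG or its reverse complement CGTCA in capitals. In Sst the 2 overlap to form TGACGTCA, which begins at base 3 after the RefSeq start (chr11:90461451-90461570, plus strand).
Sst: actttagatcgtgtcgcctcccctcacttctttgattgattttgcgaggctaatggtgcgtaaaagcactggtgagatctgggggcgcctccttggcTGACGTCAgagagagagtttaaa
In Vip the match begins 97 bases before the start (chr1:44470350-44470469, plus strand).
Vip: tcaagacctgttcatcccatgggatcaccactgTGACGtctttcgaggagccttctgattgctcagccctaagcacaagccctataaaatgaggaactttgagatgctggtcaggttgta
In Tac1 it begins 206 bases before the start, in the reverse orientation (chr4:36645343-36645462, plus strand).
Tac1: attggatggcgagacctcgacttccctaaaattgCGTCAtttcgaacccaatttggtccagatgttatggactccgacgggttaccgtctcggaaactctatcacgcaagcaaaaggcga
In Cort it begins 105 bases before the start, also reversed (chr5:164845135-164845254, minus strand).
Cort: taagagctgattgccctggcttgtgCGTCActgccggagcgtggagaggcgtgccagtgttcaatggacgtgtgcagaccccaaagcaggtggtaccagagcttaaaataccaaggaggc
Npy and Pdyn have no match in the window searched, and the 120 bases before their starts are shown for comparison (chr4:80211991-80212110, plus strand, and chr3:137366504-137366623, minus strand).
Npy: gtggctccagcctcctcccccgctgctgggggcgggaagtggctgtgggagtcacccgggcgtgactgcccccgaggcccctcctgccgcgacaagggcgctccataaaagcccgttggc
Pdyn: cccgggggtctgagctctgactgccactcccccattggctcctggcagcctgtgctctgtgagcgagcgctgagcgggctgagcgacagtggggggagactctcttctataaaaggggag
The search covered both strands of 280 bases, 250 before the start and 30 after it. TGACG in either orientation was found in 4 of these 6 promoters and in 20.2% of 33469 rat promoters, and TGACGTCA in 1 of the 6 and in 1.78% of all. A match is a string of letters and not evidence of a bound site. Positions count from the annotated RefSeq starts, and the place where transcription begins in this tissue was not tested.

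The arrays were alike, with medians of 5.08 to 5.16 and correlations between any pair of 0.994 to 0.997, and no 2 were identical. Neuronal genes were well represented. Averages over the 16 arrays were 9.20 for the GABA-synthesising enzyme gene Gad1, 8.57 for the excitatory marker Neurod6 and 7.69 for Fezf2, a gene of deep-layer cells. Fos, an early gene of neuronal activity, fell by 1.37 ± 0.15 at 3 h relative to 1 h after saccharin (SE, limma adjusted p = 0.00018) and fell by 0.99 ± 0.15 after water (adjusted p = 0.0089). One array stood apart for the genes described here. C378, of the water 1 h group, had the highest median (5.16), the narrowest spread of values (SD 2.16, against 2.18 to 2.21 on the others) and the lowest mean correlation with the other arrays (0.9955), and the values without it are given beside the results that it moves most. The 3 h arrays carry the label numbers C365 to C372 and the 1 h arrays C373 to C380, so that any effect of the order of the numbers and an effect of time cannot be told apart.

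No difference between groups was detected for any of the 10 neuropeptide genes. Across the 4 comparisons of group pairs the 40 differences lay between -0.14 and 0.11, the limma 95% intervals allowed no fold lower than 0.771 or higher than 1.29, and the smallest adjusted p was 0.767 and the smallest unadjusted p 0.138. With the interaction and the 2 averaged comparisons, 70 tests in all, 0 passed an adjusted p of 0.05 in limma and 0 reached an unadjusted p of 0.05. These are levels in whole tissue, in which fewer cells of a type and less RNA per cell cannot be told apart.

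**Figure D1:**
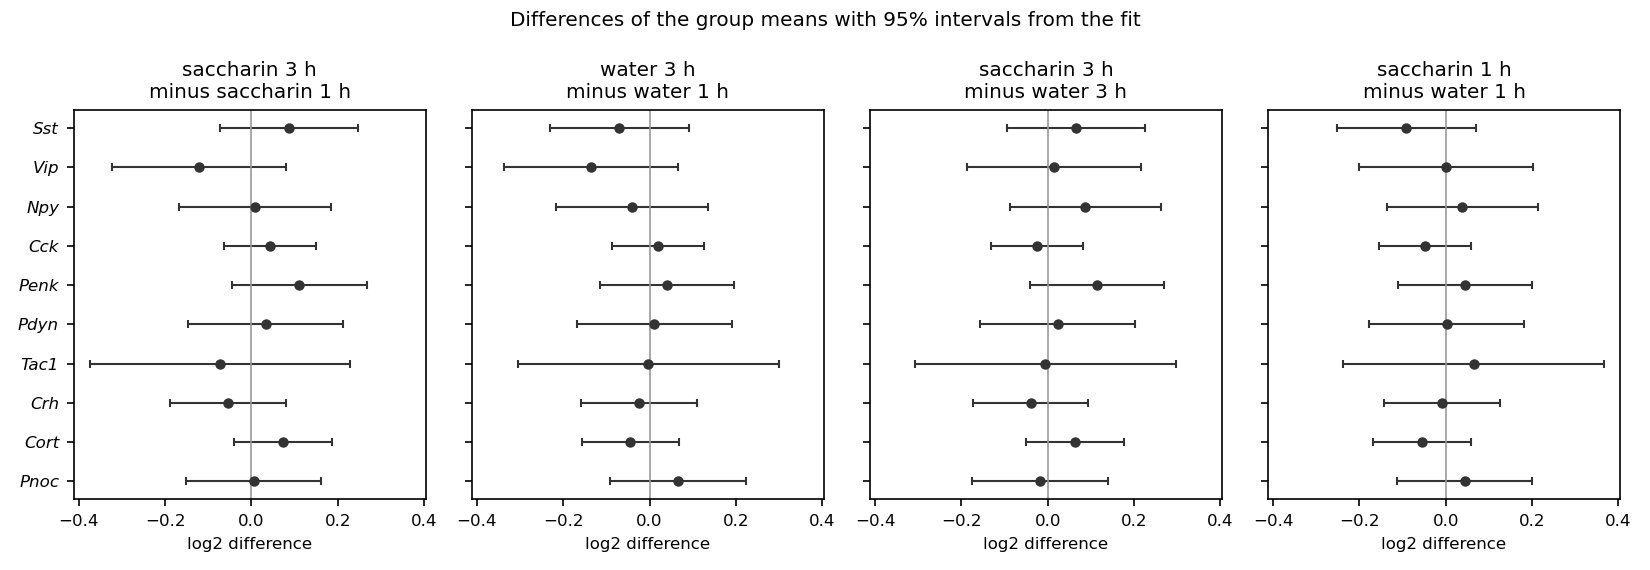
Log2 difference of the group means for the 10 genes in 4 comparisons, with 95% intervals from the limma fit. Every interval includes 0, and those of Tac1 are the widest.

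Each count of 0 stands beside the share of all 15209 probe sets that passed. For 3 h minus 1 h after saccharin, 0.348% of all probe sets passed the adjusted threshold and 7.98% an unadjusted p of 0.05. After water the shares were 0.125% and 7.23%, and for time averaged over tastes 1.01% and 12%. For saccharin minus water, 0% passed the adjusted threshold at 3 h, at 1 h, averaged over times and in the interaction. The unadjusted shares were 3.37% at 3 h, 3.06% at 1 h, 3.39% averaged over times and 2.96% in the interaction. A count of 0 among 10 genes is close to each of these shares. The count of positive differences was 7 of 10 for 3 h minus 1 h after saccharin (48.8% of all probe sets) and 6 of 10 for saccharin minus water at 3 h (47.7%), the comparisons that do not use C378. The other counts turned on that array. For 3 h minus 1 h after water 4 of 10 were positive with it (51.3% of all probe sets, median of the 10 genes -0.013) and 1 of 10 without it (49.6%, median -0.073), the exception being Pnoc at 0.0089. For saccharin minus water at 1 h 6 of 10 were positive with it (51.8%, median 0.0011) and 0 of 10 without it (47.9%, median -0.061). These comparisons share the water 1 h arrays.

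**Figure D2:**
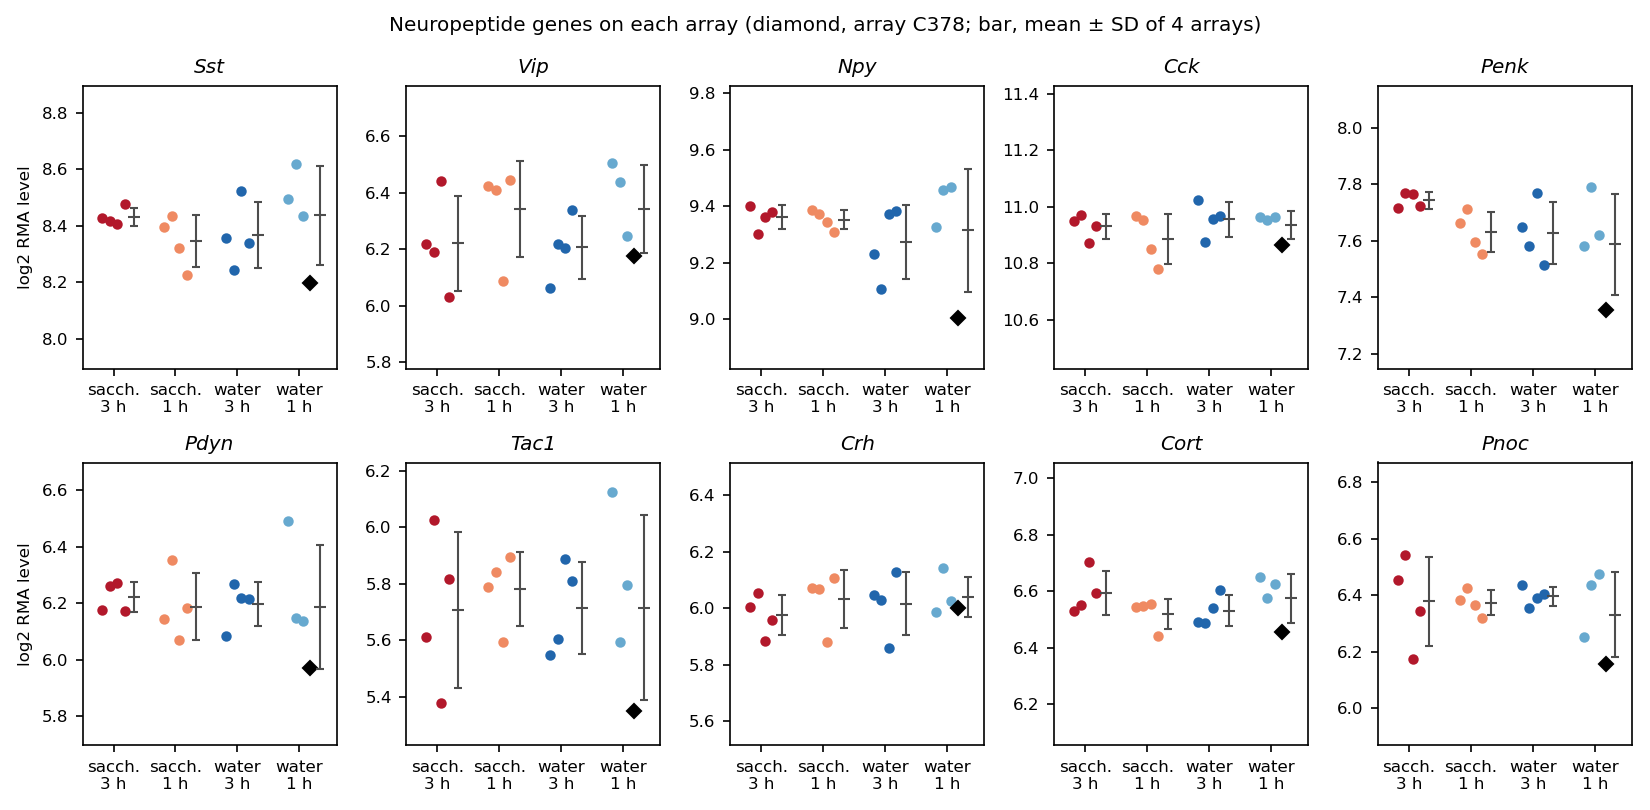
Log2 RMA level of each gene on each of the 16 arrays by group, with the mean and SD of 4 arrays beside the points and every panel spanning the same 1 log2 unit. The groups overlap in each panel, apart from Penk between saccharin 3 h and saccharin 1 h, and C378 (diamond) is the lowest point for 6 genes.

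Sst encodes somatostatin, an inhibitory peptide whose cells regulate input to pyramidal dendrites. Its level was 8.43, 8.42, 8.40 and 8.48 on the saccharin 3 h arrays, against 8.40, 8.43, 8.32 and 8.22 on the saccharin 1 h arrays. The water arrays read 8.36, 8.24, 8.52 and 8.34 at 3 h, against 8.49, 8.62, 8.43 and 8.20 at 1 h. The saccharin 3 h arrays lay close together, within the range of both water groups and overlapping saccharin 1 h, and the widest group was water 1 h, which held both the highest array of all (C374) and the lowest (C378). The difference 3 h minus 1 h was 0.087 ± 0.076 after saccharin (SE, limma adjusted p = 0.845) and -0.070 ± 0.076 after water (adjusted p = 0.900), the second being -0.149 without C378 (unadjusted p = 0.0406, adjusted p = 0.593). The interaction of taste and time was 0.158 ± 0.108 (SE, unadjusted p = 0.162, adjusted p = 1.00). Without C378 the interaction was 0.237 with an unadjusted p of 0.0196 and an adjusted p of 1.00. The water 1 h mean was above saccharin 1 h in both cases. Saccharin minus water at 1 h was -0.092 with C378 and -0.171 without it (for the latter, unadjusted p = 0.0214, adjusted p = 1.00).

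Cort encodes cortistatin, a relative of somatostatin that binds the same receptors and is made by cortical interneurons. It read 6.53, 6.55, 6.70 and 6.59 on the saccharin 3 h arrays, against 6.54, 6.55, 6.55 and 6.44 on the saccharin 1 h arrays. In the water groups it read 6.49, 6.49, 6.54 and 6.61 at 3 h, against 6.65, 6.57, 6.62 and 6.45 at 1 h. The means ran in the same order as for Sst at the low end, with saccharin 1 h last, and its interaction was 0.118 ± 0.076 (SE, unadjusted p = 0.139, adjusted p = 1.00). Without C378 this was 0.158 with an unadjusted p of 0.0428, and again 1.00 after adjustment. For the 2 somatostatin-family genes the group means spanned 0.092 (Sst) and 0.073 (Cort), beside within-group SDs of 0.116 and 0.070, and no neighbouring groups in either order of means were separated beyond their spread.

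Npy encodes neuropeptide Y, found in neurogliaform cells and in part of the Sst population. Its level was 9.36 ± 0.04 at saccharin 3 h, 9.35 ± 0.03 at saccharin 1 h, 9.27 ± 0.13 at water 3 h and 9.32 ± 0.22 at water 1 h (SD, n = 4 each). Both saccharin groups were tight, within 9.30 to 9.40, and the water groups were spread wider, down to 9.11 on C367 and 9.01 on C378. Saccharin minus water was 0.087 ± 0.083 at 3 h (SE, limma adjusted p = 0.999) and 0.038 ± 0.083 at 1 h (adjusted p = 1.00). Without C378 the water 1 h mean was 9.42, the highest of the 4 groups, its SD was 0.080, and saccharin minus water at 1 h was -0.065 (unadjusted p = 0.321, adjusted p = 1.00). The difference 3 h minus 1 h after water was then -0.144, with an unadjusted p of 0.0371 and an adjusted p of 0.586, against -0.041 with it.

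Vip encodes vasoactive intestinal peptide, made by interneurons that inhibit other interneurons. It read 6.22, 6.19, 6.44 and 6.03 on the saccharin 3 h arrays, against 6.42, 6.41, 6.09 and 6.45 on the saccharin 1 h arrays. The water arrays read 6.06, 6.22, 6.20 and 6.34 at 3 h, against 6.50, 6.44, 6.25 and 6.17 at 1 h. In both tastes the 3 h mean was the lower one, by similar amounts, and in both the arrays of the 2 times overlapped. The difference 3 h minus 1 h was -0.121 ± 0.096 after saccharin (SE, limma adjusted p = 0.823), -0.135 ± 0.096 after water (adjusted p = 0.825) and -0.128 ± 0.068 averaged over tastes, where the unadjusted p of 0.0759 was the smallest of the 70 and the adjusted p was 0.481. Leaving out 1 array moved the averaged difference to -0.165 without C370 (unadjusted p = 0.0218, limma adjusted p = 0.3001) and -0.150 without C371 (unadjusted p = 0.0475, adjusted p = 0.414). It was -0.156 without C378 (unadjusted p = 0.0363, adjusted p = 0.362) and -0.170 without C379 (unadjusted p = 0.0147, adjusted p = 0.263). Each of the other arrays, left out singly, gave an unadjusted limma p of 0.05 or more. Over all the alternatives described below the averaged difference ran from -0.277 to -0.074. Saccharin minus water was 0.015 at 3 h and below 0.001 in size at 1 h.

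Crh encodes corticotropin-releasing hormone, the stress peptide, which in cortex is made by interneurons that often also make Vip. Its level was 5.98 ± 0.07 at saccharin 3 h, 6.03 ± 0.10 at saccharin 1 h, 6.02 ± 0.11 at water 3 h and 6.04 ± 0.07 at water 1 h (SD, n = 4 each). The 2 times overlapped in both tastes, with 3 h minus 1 h at -0.055 ± 0.064 after saccharin and -0.024 ± 0.064 after water (SE, limma adjusted p = 0.902 and 0.966).

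Cck encodes cholecystokinin. Its level was 10.93 ± 0.04 at saccharin 3 h, 10.89 ± 0.09 at saccharin 1 h, 10.95 ± 0.06 at water 3 h and 10.94 ± 0.05 at water 1 h (SD, n = 4 each). It was the steadiest of the 10 genes, with a within-group SD of 0.063 that was higher than that of only 15.1% of all probe sets tested, and its 4 intervals ran from -0.156 to 0.150. Its saccharin 1 h arrays C379 and C380 were lower than the rest at 10.85 and 10.78.

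Penk encodes proenkephalin, the precursor of the enkephalins, which act on delta and mu opioid receptors. It read 7.72, 7.77, 7.77 and 7.72 on the saccharin 3 h arrays, against 7.66, 7.71, 7.60 and 7.56 on the saccharin 1 h arrays. The water arrays read 7.65, 7.58, 7.77 and 7.51 at 3 h, against 7.58, 7.79, 7.62 and 7.36 at 1 h. After saccharin every 3 h array lay above every 1 h array, by the narrow gap between 7.716 and 7.713, while after water the times overlapped fully. This was the only one of the 40 pairs of groups without overlap, where 4.78% of all probe sets did not overlap for that comparison (4.35% for time after water, 1.91% for taste at 3 h and 1.5% for taste at 1 h), and a background of 4.78% leaves little to read from 1 gene of 10. The difference was 0.111 ± 0.074 (SE, limma adjusted p = 0.767), and the exact two-sided permutation test of 4 arrays against 4 gave p = 0.0286, the smallest it can give. The saccharin difference was close to the within-group SD of 0.111 over all groups and did not pass the limma test. Saccharin minus water was 0.115 ± 0.074 at 3 h and 0.045 ± 0.074 at 1 h (SE, adjusted p = 0.999 and 1.00), and at 1 h it was -0.033 without C378. The difference 3 h minus 1 h after water was 0.041, and -0.036 without C378.

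Pdyn encodes prodynorphin, whose dynorphins act on the kappa opioid receptor. Its level was 6.22 ± 0.05 at saccharin 3 h, 6.19 ± 0.12 at saccharin 1 h, 6.20 ± 0.08 at water 3 h and 6.19 ± 0.22 at water 1 h (SD, n = 4 each). The 4 means spanned 0.035, or 0.070 without C378, and the wide water 1 h group ran from 5.97 on C378 to 6.49 on C373, the lowest and the highest arrays of all 16. Pnoc encodes prepronociceptin, whose peptide acts on the nociceptin receptor. It averaged 6.38 ± 0.16 at saccharin 3 h, 6.37 ± 0.04 at saccharin 1 h, 6.40 ± 0.03 at water 3 h and 6.33 ± 0.15 at water 1 h (SD, n = 4 each). For Pdyn the differences 3 h minus 1 h were 0.033 ± 0.085 after saccharin and 0.011 ± 0.085 after water, and for Pnoc 0.0050 ± 0.074 and 0.066 ± 0.074 (SE, limma adjusted p from 0.903 to 0.994). Without C378 the water differences were -0.061 for Pdyn and 0.0089 for Pnoc. With the striatal marker score as a covariate the Pdyn differences were negative, -0.228 after saccharin (unadjusted p = 0.0435, adjusted p = 0.985), -0.242 after water (unadjusted p = 0.0307, adjusted p = 0.796) and -0.235 over both tastes (unadjusted p = 0.0202, adjusted p = 0.735). This was not particular to Pdyn: the differences of Vip over both tastes (-0.277) and Cort after water (-0.170) were also more negative with it.

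Tac1 encodes the precursor of substance P and neurokinin A. It read 5.61, 6.03, 5.38 and 5.82 on the saccharin 3 h arrays, against 5.79, 5.84, 5.60 and 5.90 on the saccharin 1 h arrays. The water arrays read 5.55, 5.61, 5.89 and 5.81 at 3 h, against 6.12, 5.59, 5.80 and 5.35 at 1 h. Rats of 1 group differed more for Tac1 than for any of the other 9 genes, and its within-group SD of 0.238 was higher than that of 98.7% of all probe sets tested. The group means spanned only 0.073, and its intervals, from -0.375 to 0.367, were the least precise of the 10.

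The order of the 4 group means differed from gene to gene and rested on C378. For Penk it ran saccharin 3 h, saccharin 1 h, water 3 h, water 1 h from high to low, and without C378 water 1 h moved up to second. Water 1 h had the highest mean for 2 of 10 genes, Sst and Crh, with C378 and for 8 of 10 without it. The span from the highest to the lowest mean exceeded the within-group SD for 3 genes, Penk (0.156 against 0.111), Cck (0.068 against 0.063) and Cort (0.073 against 0.070), and was smaller than it for the other 7. Without C378 it exceeded the SD for 6 genes, Sst (0.171 against 0.090), Vip (0.191 against 0.148), Npy (0.144 against 0.081) and the same 3. No share over all probe sets was computed for these counts of highest means and spans. They describe the 10 genes and are not a test of a difference between groups.

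The spread between rats of 1 group varied widely among these genes. Within-group SDs ran from 0.063 (Cck) to 0.238 (Tac1), and 7 of the 10 lay above the median of 0.093 over all probe sets tested. The group with the highest SD was water 1 h for 6 of the 10 genes (28.3% of all probe sets), and without C378 for 2 of 10 (21.8% of all). C378 was the lowest of the 16 arrays for Sst, Npy, Penk, Pdyn, Tac1 and Pnoc, 6 of 10 genes, whereas it was the lowest for 10.9% of all probe sets tested. Compared with the mean of the other 3 water 1 h arrays it was lower for all 10 genes, by 0.486 on the log2 scale for Tac1 at most and 0.050 for Crh at least. For Npy it read 9.01, against 9.33, 9.46 and 9.47 on the other water 1 h arrays, and for Sst 8.20, against 8.43, 8.49 and 8.62.

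**Figure D3:**
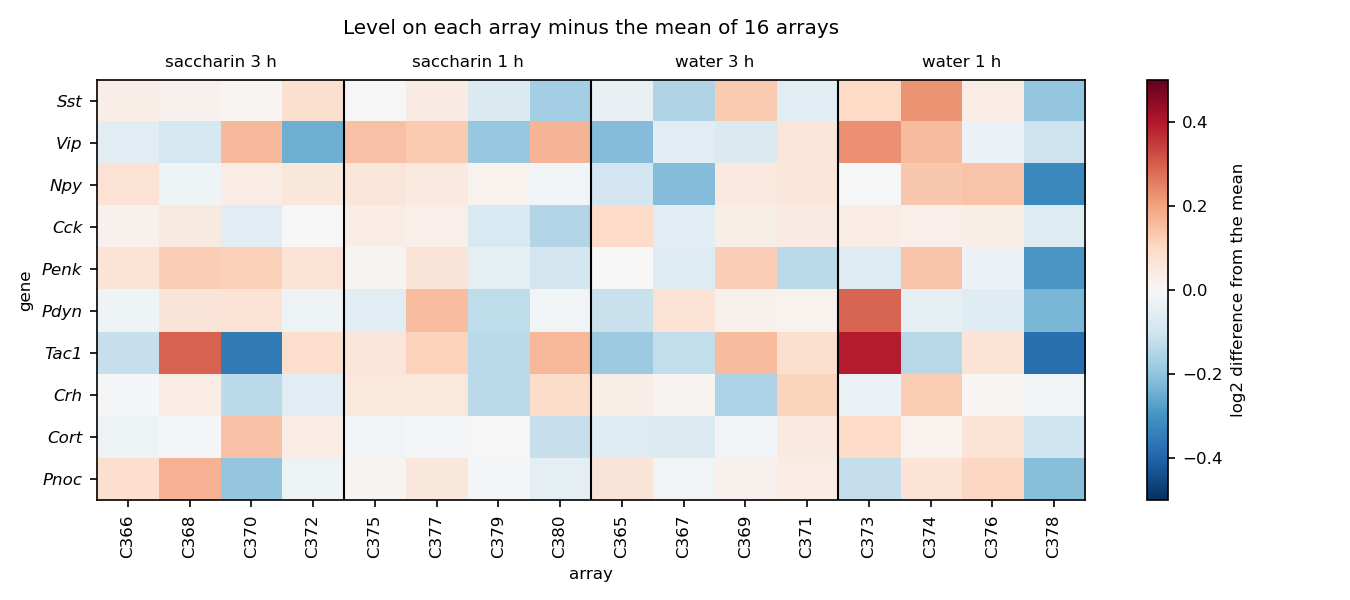
Level of each gene on each array minus its mean over 16 arrays (colour, log2), with arrays in columns grouped by taste and time. The C378 column at the right is blue for all 10 genes, and no group of columns has 1 colour throughout.

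Some lists of other genes were low on the same array. The score of a list is the mean of its genes, each centred on its mean over the 16 arrays. C378 had the lowest of the 16 scores for 5 of 11 lists: GABAergic interneurons (-0.074, others -0.059 to 0.063), cortical excitatory neurons (-0.127, others -0.082 to 0.118), claustrum (-0.267, others -0.246 to 0.281), peptide receptors (-0.101, others -0.097 to 0.056) and peptide processing (-0.118, others -0.032 to 0.045). Its scores were inside the range of the others for astrocytes (0.031), oligodendrocytes (-0.013), microglia (-0.0068) and leptomeninges (0.187). The same held for striatal neurons (-0.087, others -0.112 to 0.089) and for other neuropeptide precursors (0.014, others -0.066 to 0.043). The part of cell content or RNA quality in the low peptide levels of C378 was not tested.

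Correlations among the 10 genes across rats were mostly positive. Of 45 pairs, 38 had a positive Pearson r over the 16 arrays, with a median of 0.328, and r kept its sign within both times for 25. The share of positive r among pairs of all probe sets was not computed, so the count does not set these genes apart from others. Sst and Penk were the closest pair (r = 0.764, permutation p = 0.00046, adjusted p over 45 pairs 0.0207; Spearman rho 0.724, permutation p = 0.0021, adjusted p = 0.0941). Sst and Npy followed (r = 0.727, permutation p = 0.0010, adjusted p = 0.0232; rho 0.585, permutation p = 0.0184, adjusted p = 0.275). These 2 were the only pairs to pass after adjustment, and 0 pairs passed by Spearman. Both held within each time: r for Sst and Penk was 0.756 at 3 h and 0.823 at 1 h (8 arrays each), and for Sst and Npy 0.760 at 3 h and 0.722 at 1 h.

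Array C378 carried part of this. Without it the median r of the 45 pairs was 0.175, 0 pairs passed after adjustment, and r was 0.688 for Sst with Penk (permutation p = 0.0035, adjusted p = 0.159) and 0.636 for Sst with Npy (permutation p = 0.0113, adjusted p = 0.254). Without the 2 arrays farthest from the median of Sst, C378 and C374, r was 0.619 and 0.567. Npy and Penk, with r = 0.644 (permutation p = 0.0094, adjusted p = 0.105), came down to 0.203 without the 2 arrays farthest from the median of Npy (C378 and C367) and rested on those arrays. The striatal peptides Pdyn and Tac1 had r = 0.626 (permutation p = 0.0087, adjusted p = 0.105), made up of 0.121 at 3 h and 0.882 at 1 h, and 0.233 without C373 and C378. By time, the median r over the 45 pairs was 0.110 at 3 h and 0.467 at 1 h, the time to which C378 belongs.

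**Figure D4:**
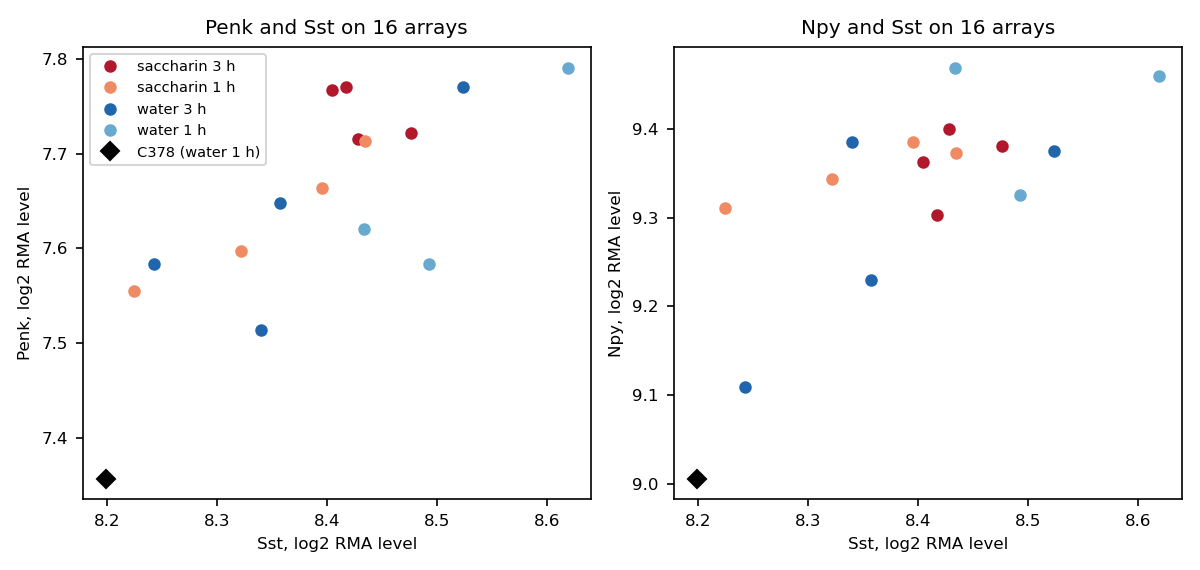
Level of Penk (left) and Npy (right) against Sst on the 16 arrays, coloured by group. Penk and Npy are higher where Sst is higher over the 16 arrays, and C378 (diamond) is at the low end of both plots.

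The genes whose levels followed each peptide most closely are given as a description of likeness over 16 arrays. They were picked for the highest r among all probe sets tested, so high values follow from the choice itself and were not tested. Spearman rho for the same pairs ran from 0.63 (Npy with Rwdd1) to 0.91 (Cort with Uqcrh). Values without C378 were not computed. The 3 probe sets with the highest r were Atp5mc1, Rps15 and Uqcrq for Sst (0.838, 0.824 and 0.823), of oxidative phosphorylation and the ribosome. For Cort they were Uqcrh, Thap7 and Dmtn (0.853, 0.821 and 0.806), for Npy Rwdd1, Stx8 and Ube2n (0.913, 0.900 and 0.888), and for Vip Nsg1, Mdh1 and Plekhb2 (0.839, 0.823 and 0.821). Penk was most like Glrx5, Myl12b and Gpr137 (0.869, 0.826 and 0.818), Pdyn like Polr2f, Galm and Maged1 (0.849, 0.837 and 0.820), and Tac1 like Gtf2h3, Ssr3 and Rab18 (0.866, 0.775 and 0.774). Crh was most like Snx6, Flii and Rbm22 (0.831, 0.820 and 0.793). For Pnoc they were Ivns1abp, Scg2 (secretogranin II of dense core vesicles) and Prpf8 (0.848, 0.846 and 0.844), and for Cck Med10, Pls3 and the dopamine receptor gene Drd1 (0.838, 0.799 and 0.791).

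Among the receptors a single gene passed the test. Of 20 measured genes of receptors and binding proteins, 1 passed the adjusted threshold for 3 h minus 1 h averaged over tastes (1.01% of all probe sets), and it was the VIP receptor gene Vipr1. It read 5.63, 5.64, 5.70 and 5.71 on the saccharin 3 h arrays, against 5.91, 5.86, 5.87 and 5.90 on the saccharin 1 h arrays. The water arrays read 5.84, 5.77, 5.70 and 5.76 at 3 h, against 5.78, 5.93, 5.78 and 5.83 at 1 h. After saccharin the 2 times did not overlap (4.78% of all probe sets), and after water they did. Vipr1 fell by 0.140 ± 0.032 (SE, limma adjusted p = 0.0453) over both tastes, with -0.215 ± 0.046 after saccharin (adjusted p = 0.0543) and -0.064 ± 0.046 after water (adjusted p = 0.826), and the interaction was -0.151 ± 0.065 (unadjusted p = 0.0322, adjusted p = 1.00). The call was marginal and was kept without C365 or C373 only, being lost without any 1 of the other 14 arrays (highest adjusted p 0.101). The second VIP receptor gene, Vipr2, differed by 0.051 ± 0.085 (SE, adjusted p = 0.882).

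No other receptor gene passed. The kappa opioid receptor gene Oprk1, the partner of dynorphin, differed by 0.253 ± 0.097 (SE, unadjusted p = 0.0185, limma adjusted p = 0.282) for 3 h minus 1 h over both tastes, and Crhbp, which encodes the protein that binds and holds CRH, by 0.168 ± 0.073 (unadjusted p = 0.0349, adjusted p = 0.360). The somatostatin receptor gene Sstr1 differed by 0.119 ± 0.056 (unadjusted p = 0.0461, adjusted p = 0.404). Of the receptors for the remaining peptides, Npy1r (0.021), Cckbr (0.078), Oprd1 (0.0076), Oprm1 (0.040), Oprl1 (-0.066) and Tacr1 (0.078) had unadjusted p-values from 0.0879 to 0.898. In all 15 of 20 were positive, with a median of 0.037, beside 50% positive and a median near 0 over all probe sets.

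Of 16 measured genes of peptide processing and dense core vesicles, 1 passed for 3 h minus 1 h over both tastes (1.01% of all probe sets). It was Vgf, which encodes a granin-like precursor that is itself cut into active peptides. It read 7.996, 8.30, 8.04 and 8.08 on the saccharin 3 h arrays, against 7.66, 7.86, 8.08 and 7.86 on the saccharin 1 h arrays. The water arrays read 8.21, 8.15, 8.10 and 8.18 at 3 h, against 7.92, 7.91, 7.91 and 7.53 at 1 h. After water the 2 times did not overlap (4.35% of all probe sets), and after saccharin the 1 h array C379 reached into the 3 h range. Vgf rose by 0.292 ± 0.066 (SE, limma adjusted p = 0.0370) over both tastes, with 0.239 ± 0.093 after saccharin (adjusted p = 0.499) and 0.345 ± 0.093 after water (adjusted p = 0.277). Without 1 array the call was kept for C366, C373, C374, C378 and C379 and lost for the other 11, with a highest adjusted p of 0.0825.

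Some of the enzymes that cut and modify the precursors, picked after their values were seen, had values near 0. These were 0.0041 ± 0.033 for the convertase gene Pcsk2, 0.023 ± 0.030 for the carboxypeptidase gene Cpe and 0.017 ± 0.038 for the amidating enzyme gene Pam (SE, 3 h minus 1 h over both tastes, limma adjusted p = 0.980, 0.834 and 0.923). Another convertase gene, Pcsk5, was at 0.106 over both tastes (limma unadjusted p = 0.0132, adjusted p = 0.244). After water the vesicle gene Ptprn was at 0.128 (limma unadjusted p = 0.0182, adjusted p = 0.560). Pcsk5 and Ptprn had the smallest p-values after Vgf. Of 28 measured genes of other neuropeptide precursors, 0 passed in any of the 7 comparisons in limma. The closest was Calcb, of the CGRP family, with saccharin minus water at 3 h of -0.340 ± 0.053 (SE, adjusted p = 0.0756) at a dim mean level of 3.61, followed by Nmb (-0.209, unadjusted p = 0.0032, saccharin minus water over both times) and Nppa (0.278, unadjusted p = 0.0034, 3 h minus 1 h over both tastes).

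**Figure D5:**
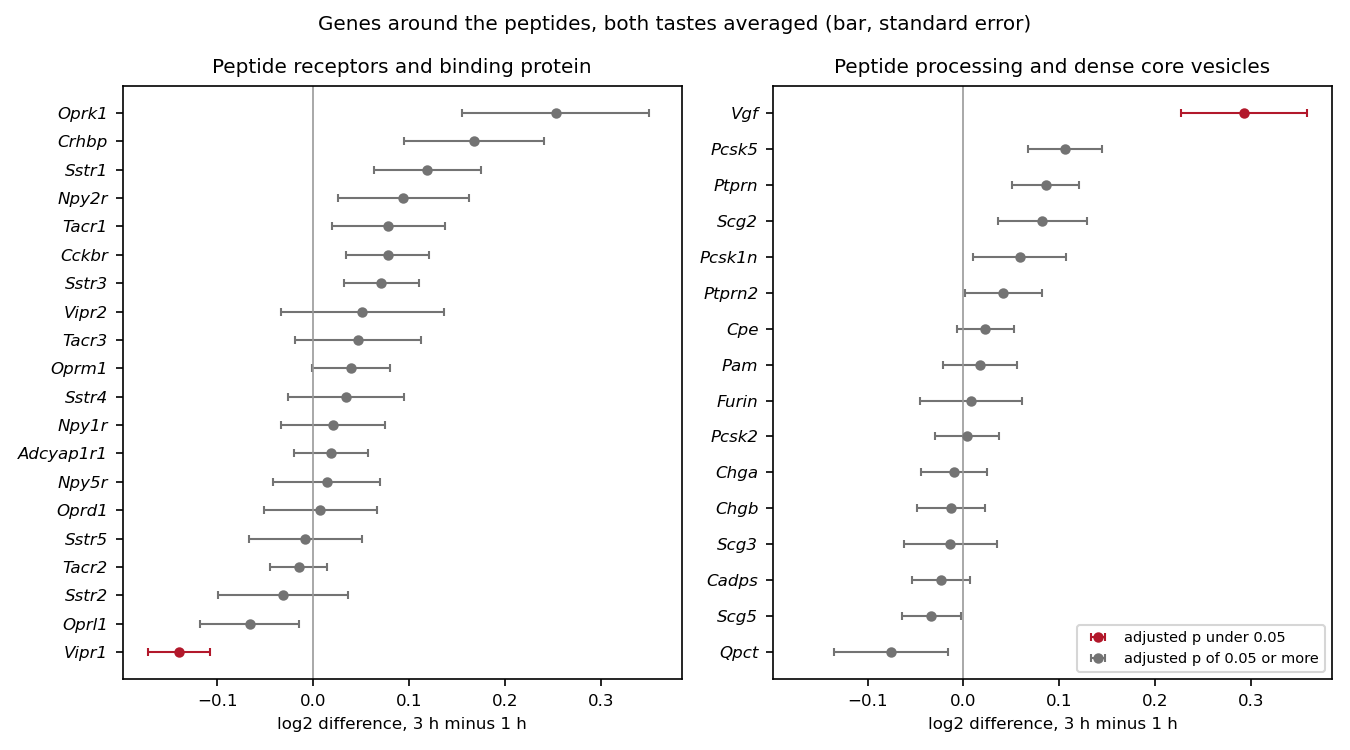
Log2 difference of 3 h minus 1 h averaged over tastes for 20 genes of receptors and binding proteins (left) and 16 genes of peptide processing and vesicles (right), with standard errors from limma. Vipr1 (-0.14) and Vgf (0.29) are the 2 that passed the adjusted threshold.

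The cell type markers give the setting of these values. Of 16 interneuron genes none passed in any comparison in limma, with a median of -0.019 for 3 h minus 1 h over both tastes, and Dlx5 had the smallest p (-0.162, unadjusted p = 0.0060, adjusted p = 0.175). For saccharin minus water at 1 h, 15 of the 16 were positive (51.8% of all probe sets), with a median of 0.053. That comparison uses C378, and the count without C378 was not computed. Over both tastes, markers of striatal neurons were higher at 3 h in 9 of 12 genes by value (50% of all probe sets), while Gpr6, Adora2a and Ido1 were lower. Of the 12, 1 passed (1.01% of all probe sets): Pde10a, a striatal phosphodiesterase, rose by 0.488 ± 0.048 (SE, limma adjusted p = 1.6e-05). Drd2 (0.309, adjusted p = 0.0539) and Rxrg (0.210, adjusted p = 0.144) followed. The striatal score ranged over 0.0073 to 0.089 on saccharin 3 h arrays, -0.112 to 0.018 on saccharin 1 h arrays, 0.048 to 0.075 on water 3 h arrays and -0.087 to 0.0078 on water 1 h arrays. The share of neighbouring tissue in the dissections was not tested.

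Penk, Pdyn and Tac1, the peptides that striatal neurons share, had no correlation with that score that passed a test. Over 16 arrays r was 0.367 for Penk (permutation p = 0.163; rho 0.209, p = 0.437), 0.429 for Pdyn (permutation p = 0.0991; rho 0.462, p = 0.0736) and 0.011 for Tac1 (permutation p = 0.968; rho -0.050, p = 0.855). The adjusted p over 10 genes was at least 0.407 for r and 0.718 for rho. Within 3 h the values were -0.359, 0.054 and -0.450, and within 1 h 0.381, 0.780 and 0.473 (8 arrays each), and without C378 they were 0.200, 0.317 and -0.178. Without the 2 arrays farthest from the median score they were 0.357, 0.458 and 0.172.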

How the data were processed

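Gustatory cortex mRNA was hybridised to 16 one-colour Affymetrix RaGene 1.1 ST arrays, each from a separate rat. Starting from the raw files, the authors applied quantile normalization across chips and RMA in the package affy (version not given in the sources used here), which gives the deposited log2 values, used here unchanged. Quantile normalization forces similar distributions on all arrays, so a change common to most genes would not be seen. The array annotation gives a single gene for 15209 of the 28826 probe sets, which were the ones tested. It gives several genes for 306 and does not list 13311. The number of arrays limits the precision.

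All 16 arrays entered 1 limma fit with a mean per group (limma 3.58.1, R 4.3.3; two-sided, Benjamini-Hochberg over all probe sets tested, adjusted p under 0.05). Group pairs were also compared by exact permutation, and correlations by 100000 seeded permutations (NumPy 2.4.6). The fit was tested on simulated data. All 10 members are named with their values. The rule also names, from each gene list, up to 3 genes with the smallest p outside the interaction and any gene past the adjusted threshold, and for each member the 3 probe sets most like it. Sstr1, Vipr2, Npy1r, Cckbr, Oprd1, Oprm1, Oprl1, Tacr1, Pcsk2, Cpe and Pam lie outside this rule and were chosen after their values were seen. Fos, Gad1, Gpr6, Adora2a and Ido1 are also outside it. Alternatives were other probe set filters, centring, other variance models, fewer arrays and marker covariates. The members and lists were chosen with earlier results of these data known, and correlations, spread, order of means and counts of direction without C378 were added after seeing the data. Promoters are from RefSeq (GRCr8), which is not the assembly the authors aligned probes to.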

Additional observations from a re-analysis of the deposited data

Results flagged for a closer look

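Among the 40 sets of 4 arrays (10 genes in 4 groups), 3 held an array far from the other 3 by Dixon's test at the 95% level, and chance marks about 1 set in 20. Vip on C379 of the saccharin 1 h group read 6.09, against 6.41 to 6.45 on the other 3 arrays. Cck on C378 of the water 1 h group read 10.86, against 10.95 to 10.96. Cort on C380 of the saccharin 1 h group read 6.44, against 6.54 to 6.55. All 3 were low arrays, and their causes were not tested.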

How the results depend on the processing

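The count of neuropeptide genes past the adjusted threshold was 0 in each of the 7 comparisons under the 27 alternatives (the fit on 8 arrays alone gives no interaction or averaged comparison), 16 of which left out 1 array, and leaving out an array gave 0 at the lowest and 0 at the highest. Over 1853 values of single genes the smallest adjusted p was 0.263, 18 had an unadjusted p under 0.05, and 139 changed sign with no p under 0.05 on either side. Tac1 has no value under the filter on a mean level above 6. With the striatal score as a covariate Pdyn turned from a positive to a negative difference for 3 h minus 1 h: -0.228 after saccharin, -0.242 after water and -0.235 over both tastes (adjusted p at least 0.735); the score itself differs between the times, and the cause was not tested. Pairs of genes past the adjusted threshold numbered 2, and 0 without C378. Counts of positive differences among the 10 genes without C378 were 1 of 10 for time after water, 0 of 10 for taste at 1 h, 3 of 10 for time over both tastes and 2 of 10 for taste over both times (4, 6, 6 and 7 with it). Vipr1 and Vgf also lost their calls over all probe sets (adjusted p = 0.0827 and 0.0854), with arrays centred on their medians (0.112 and 0.0521) and with the striatal (0.794 and 0.866) or leptomeningeal (0.133 and 0.171) covariate, with differences of -0.130 and 0.176 or -0.168 and 0.325. Pde10a, itself a gene of the striatal score, lost it with that covariate (0.408, adjusted p = 0.192). Vipr1 also lost it with a trended robust prior (0.101) and Vgf by least squares (0.110). Over all probe sets the calls for 3 h minus 1 h ran from 8 to 76 after saccharin (53 in the report), 3 to 28 after water (19) and 11 to 218 over both tastes (153), lowest with the striatal covariate, the 8 arrays alone and the striatal covariate. No paired analysis was possible because no array number occurs in more than 1 group.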

Other observations

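All 13 measured leptomeningeal and fibroblast genes were lower at 3 h by value over both tastes (median -0.286), where 50% of all probe sets were positive. Of the 13, 0 passed the adjusted threshold in limma (1.01% of all probe sets) and 10 had an unadjusted p under 0.05 (12%). Col1a1 (-0.336, adjusted p = 0.0617), Igf2 (-0.286, adjusted p = 0.107) and, after saccharin, Col3a1 (-0.434, adjusted p = 0.230) had the smallest p. The 6 claustrum genes were all positive for 3 h minus 1 h over both tastes (50% of all probe sets), with a median of 0.151. Among them Nr4a2 was at 0.256 and Lxn at 0.170 (limma adjusted p = 0.397 and 0.438).

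Among microglial genes Cx3cr1 (0.127, adjusted p = 0.126) and C1qa (0.210, adjusted p = 0.178) had the smallest p for 3 h minus 1 h over both tastes in limma, and P2ry12 (0.116, adjusted p = 0.999) for saccharin minus water at 3 h. Of the excitatory genes Neurod2 was at -0.233 for 3 h minus 1 h after saccharin (adjusted p = 0.321), Neurod6 at 0.197 after water (adjusted p = 0.456) and Fezf2 at 0.112 over both tastes (adjusted p = 0.393). Astrocyte and oligodendrocyte genes had 0 calls, and their smallest p-values belonged to Aldh1l1 (0.093, unadjusted p = 0.0254), S100b and Aqp4, and to Mbp (0.084, unadjusted p = 0.262), Opalin and Mobp. The remaining interneuron genes under the rule were Slc32a1 (0.074, saccharin minus water over both times, unadjusted p = 0.0997) and Chrna2 (0.088, saccharin minus water at 3 h, unadjusted p = 0.142).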
